A study of Mus musculus with 8 samples.

Results

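Bile acid, organic ion and drug transporters are the membrane proteins that carry bile salts, hormones, drugs and metabolites across the liver cell. The set described here holds every gene of the deposited table whose symbol belongs to the Slc10, Slc22, Slco, Slc47, Slc51, Abcb, Abcc or Abcg families, which gave 77 of 21899 genes. Within these families, membership followed from the symbol alone. Of the 77, 47 passed the expression filter and were tested, and 42 of these reached the filter level in all libraries of both groups.

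The livers came from mice given ConA (concanavalin A), a lectin used to provoke hepatitis driven by T cells, and were taken at 8 h. The 4 P2X4R-deficient libraries, numbered 1 to 4, were set against 4 wild-type (WT) libraries, also numbered 1 to 4, and both groups had received ConA. The deficient genotype is a P2X4R knockdown in the sample labels but P2X4R-/- in the design text, and the altered part of the gene is not stated. The sources used here do not give strain, age, sex or ConA dose, nor whether each library is a separate animal, so the spread behind each p-value may be technical. No liver without ConA was analysed here, so no level before hepatitis can be set beside these values. P2rx4, which encodes the ATP-gated channel P2X4R, averaged 24.7 ± 5.33 CPM in deficient and 55.8 ± 8.31 CPM in WT livers (SD, n = 4 each), or 44.2% of the WT level in the fit, with no overlap between the groups.

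A hepatocyte has a blood-facing (sinusoidal or basolateral) membrane and a bile-facing (canalicular) membrane. Uptake carriers such as NTCP and the organic anion transporting polypeptides draw bile salts and organic ions from blood. ATP-driven pumps and a proton exchanger push them into bile, and a further set of pumps can return them to blood. In mice, hepatic inflammation and cholestasis are known to lower several of these transporters.

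Many transporter genes were lower in deficient livers, with a negative log2 fold change for 40 of the 47 tested. Of the 47 tested, 23 fell and 0 rose at an edgeR adjusted p under 0.05, against 10.6% of all 11380 tested genes that fell and 9.27% that rose (19.9% in either direction). With p unadjusted, 25 were lower and 2 higher. DESeq2 gave a p-value for 64 members and called 24 of them lower (37.5%) and 1 higher. It called 9.70% of 16099 genes lower. For 22 of the 47 every deficient library lay below every WT library, against 12.3% of all tested genes. For 0 did every deficient library lie above, against 12.7% of all tested genes. The 23 and the 22 include Slc22a29, which reached the filter level in every WT library but not in every deficient one. The median log2 fold change (deficient over WT) was -0.73 over the 47 and -0.001 over all tested genes.

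Library totals ran from 15445285 to 16604190 reads, and levels below are CPM, read counts scaled to library size by edgeR's TMM factors, unless FPKM, a level per gene length, is named. Some libraries stood apart within their group. Deficient 1 was the lowest deficient library for 13 of the 24 tested members with an assigned membrane role, and WT 3 was the highest WT library for 12 of the 24. Without WT 3, 12 members fell and 4.54% of all genes did. Without deficient 3 it was 15 members and 5.61% of all genes. Without both deficient 1 and WT 3, a check added after the values were seen, 6 members fell and 2.32% of all genes. These 6 were Slc10a1, Abcc2, Abcb4, Slc47a1, Slc22a27 and Slc22a30, which also passed in each of the other 17 alternatives run. When libraries were scaled by size alone, the median of all genes moved to 0.14 on the log2 scale. With that scaling 20 members still fell and 7.41% of all genes did.

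**Figure D1:**
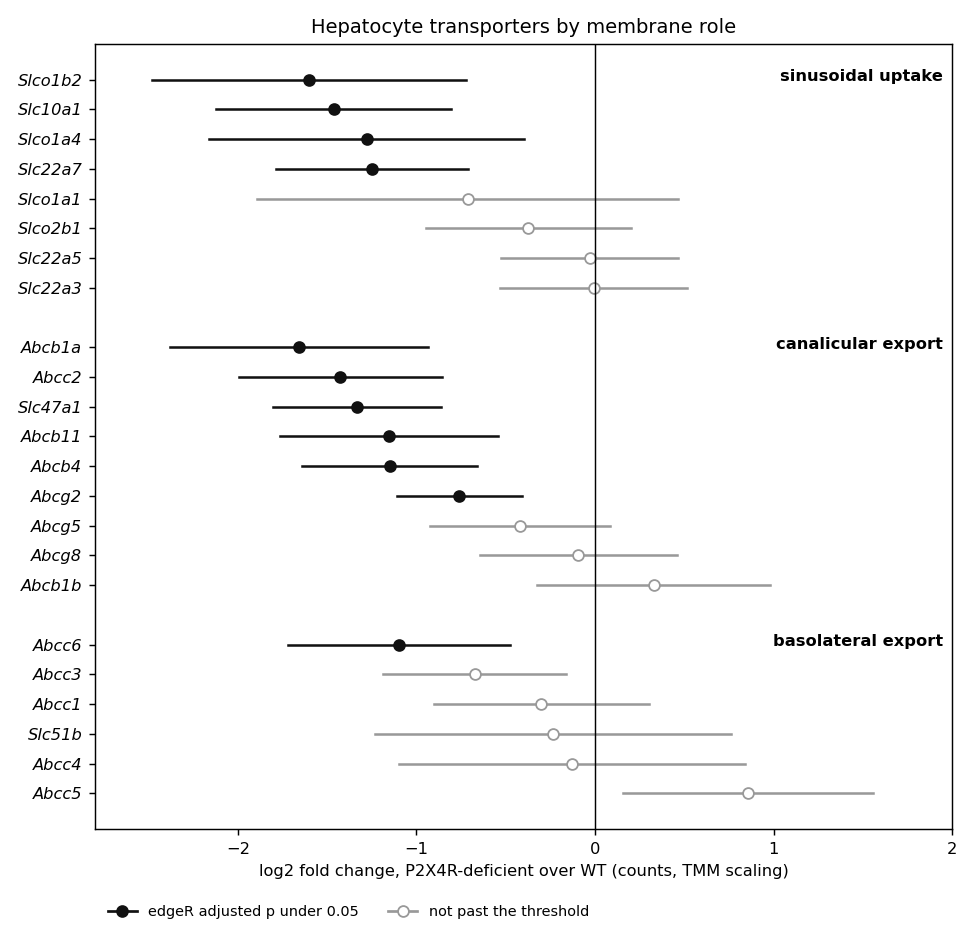
Log2 fold change, deficient over WT, of the tested transporters with an assigned membrane role that are reported singly, from counts with TMM scaling. Bars are 95% intervals and filled points passed an edgeR adjusted p under 0.05. Of the filled points, 4 are sinusoidal uptake carriers, 6 canalicular exporters and 1 a basolateral exporter, and all lie left of 0.

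Levels in bulk liver cannot separate fewer cells of a type from less RNA per cell. Of 12 hepatocyte marker genes, 1 fell and 0 rose in edgeR, against 10.6% of all tested genes that fell and 9.27% that rose. The 1 was Cps1, a urea cycle enzyme, at -0.94 on the log2 scale (SE 0.24). The summed hepatocyte marker level was 120814 to 151535 CPM in deficient and 150403 to 174151 CPM in WT livers, and the ranges overlapped. The mean log2(CPM + 1) over the 12 was 11.86 to 11.97 in deficient and 12.04 to 12.17 in WT livers, without overlap. The fold change was negative for 9 of the 12. For 4 of the 12 every deficient library lay below every WT library, against 12.3% of all tested genes. Of 10 Kupffer cell and macrophage markers 4 fell (40.0%). The 10 summed to 45.1 to 64.2 CPM in deficient and 60.9 to 196 CPM in WT livers. Of 7 tested neutrophil markers 2 rose (28.6%). All 10 listed, tested or not, summed to 81.8 to 160 CPM in deficient and 22.7 to 90.6 CPM in WT livers. Each marker had reads in at least 1 library. The part of these cell types in the transporter differences was not tested.

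Sinusoidal uptake carriers fell in 5 of 9 tested cases, or 55.6%, against 10.6% of all tested genes. They rose in 0 (0 also at an unadjusted p under 0.05 and in DESeq2), and had a median log2 fold change of -0.71. Slc10a1 (ENSMUSG00000021135), which encodes NTCP, the sodium-coupled carrier that takes up most conjugated bile salts, had 45.0, 140, 106 and 121 CPM in deficient livers 1 to 4. WT livers 1 to 4 had 295, 234, 373 and 234 CPM. Every deficient liver lay below every WT liver, and deficient 1 was the lowest of all. The fold change was -1.46 on the log2 scale (SE 0.30 and edgeR adjusted p = 0.0101), or 36.3% of the WT level with a 95% interval of 23.0% to 57.2%.

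Slco1b2 (ENSMUSG00000030236), the main liver-specific organic anion transporting polypeptide of the mouse, had 45.6, 198, 80.6 and 168 CPM in deficient livers, against 311, 294, 582 and 308 CPM in WT livers. The groups did not overlap, although deficient 1 and deficient 3 were far below the other deficient livers and WT 3 far above the other WT livers. Slco1b2 fell by 1.60 on the log2 scale (SE 0.40 and edgeR adjusted p = 0.0198). It missed the threshold without deficient 3 (-1.44, adjusted p = 0.0611) or without WT 3 (-1.31, adjusted p = 0.0641). Slco1a4, a digoxin and bile salt carrier of the same family, had 21.5, 47.2, 9.94 and 39.9 CPM in deficient and 39.0, 80.6, 81.7 and 86.5 CPM in WT livers. WT 1 lay within the deficient range, so the groups overlapped. Its fall of 1.28 (SE 0.40 and edgeR adjusted p = 0.0440) did not pass when any of deficient 1, deficient 3, WT 2, WT 3 or WT 4 was left out (adjusted p = 0.101, 0.0687, 0.0808, 0.103 and 0.0902), with size scaling alone (adjusted p = 0.0519) or with robust estimation (adjusted p = 0.0556).

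Slco1a1, also a Slco1 gene, had 7.23, 32.2, 64.5 and 47.5 CPM in deficient and 30.7, 39.3, 118 and 60.1 CPM in WT livers. Its groups overlapped and its 95% interval ran from -1.89 to 0.46 on the log2 scale, so a fall as large as that of Slco1b2 lay within it. Slco2b1, a carrier of steroid sulfates, averaged 33.7 ± 12.5 CPM in deficient and 43.7 ± 11.1 CPM in WT livers (SD, n = 4 each; 95% interval of the log2 fold change -0.95 to 0.20). The Slco1 genes lie together on chromosome 6, from 141470094 to 142268707 in the coordinates of the table, and are close in sequence, so reads of their coding parts could have been divided between them.

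Of the Slc22 family, Slc22a7 (ENSMUSG00000067144), which encodes the anion carrier OAT2, had 11.6, 11.4, 8.61 and 15.8 CPM in deficient and 25.7, 31.7, 37.8 and 17.7 CPM in WT livers. Every deficient liver lay below every WT liver, with WT 4 nearest to the deficient range. It fell by 1.25 on the log2 scale (SE 0.25 and edgeR adjusted p = 0.00894).

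The carnitine carrier gene Slc22a5 averaged 36.6 ± 12.6 CPM in deficient and 37.3 ± 6.89 CPM in WT livers (SD, n = 4 each), with a 95% interval of -0.52 to 0.47 on the log2 scale. Slc22a3, which encodes the cation carrier OCT3, averaged 5.09 ± 1.19 CPM in deficient and 5.12 ± 0.951 CPM in WT livers, with an interval of -0.53 to 0.52. Deficient 1 had the highest Slc22a5 level of all libraries, at 54.6 CPM, while it had the lowest Slc10a1, Slco1a1 and Slco1b2 levels.

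Canalicular exporters fell in 6 of 9 tested cases, or 66.7%, against 10.6% of all tested genes. They rose in 0 (0 also at an unadjusted p under 0.05 and in DESeq2), and had a median log2 fold change of -1.15. Abcb11 (ENSMUSG00000027048), which encodes BSEP, the ATP-driven pump that moves bile salts into bile, had 67.5, 169, 98.8 and 151 CPM in deficient livers. WT livers had 205, 223, 352 and 302 CPM, all above the deficient range. The fold change was -1.15 on the log2 scale (SE 0.28 and edgeR adjusted p = 0.0174), or 44.9% of the WT level with a 95% interval of 29.4% to 68.6%. Abcb11 missed the threshold without deficient 3 (-1.07, adjusted p = 0.0539) or without WT 3 (adjusted p = 0.0566).

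Abcc2 (ENSMUSG00000025194), which encodes MRP2, the canalicular pump for glucuronide and glutathione conjugates, had 32.4, 71.1, 49.4 and 60.6 CPM in deficient and 118, 116, 208 and 132 CPM in WT livers. The highest deficient liver was below the lowest WT liver, and Abcc2 fell by 1.43 on the log2 scale (SE 0.26 and edgeR adjusted p = 0.00665). Abcb4 (ENSMUSG00000042476), the phosphatidylcholine floppase of the canalicular membrane, had 55.3, 70.8, 57.9 and 68.0 CPM in deficient and 89.1, 134, 203 and 134 CPM in WT livers. The deficient livers were close to each other and all below the WT range, and the fall was 1.15 (SE 0.22 and edgeR adjusted p = 0.00840). Slc47a1 (ENSMUSG00000010122), which encodes MATE1, the proton exchanger that releases cations into bile, had 10.5, 17.7, 13.7 and 20.1 CPM in deficient and 47.5, 33.4, 43.2 and 32.2 CPM in WT livers. No deficient liver reached the WT range. It had the smallest p of the 47 tested members, with a fall of 1.33 (SE 0.22 and edgeR adjusted p = 0.00481).

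**Figure D2:**
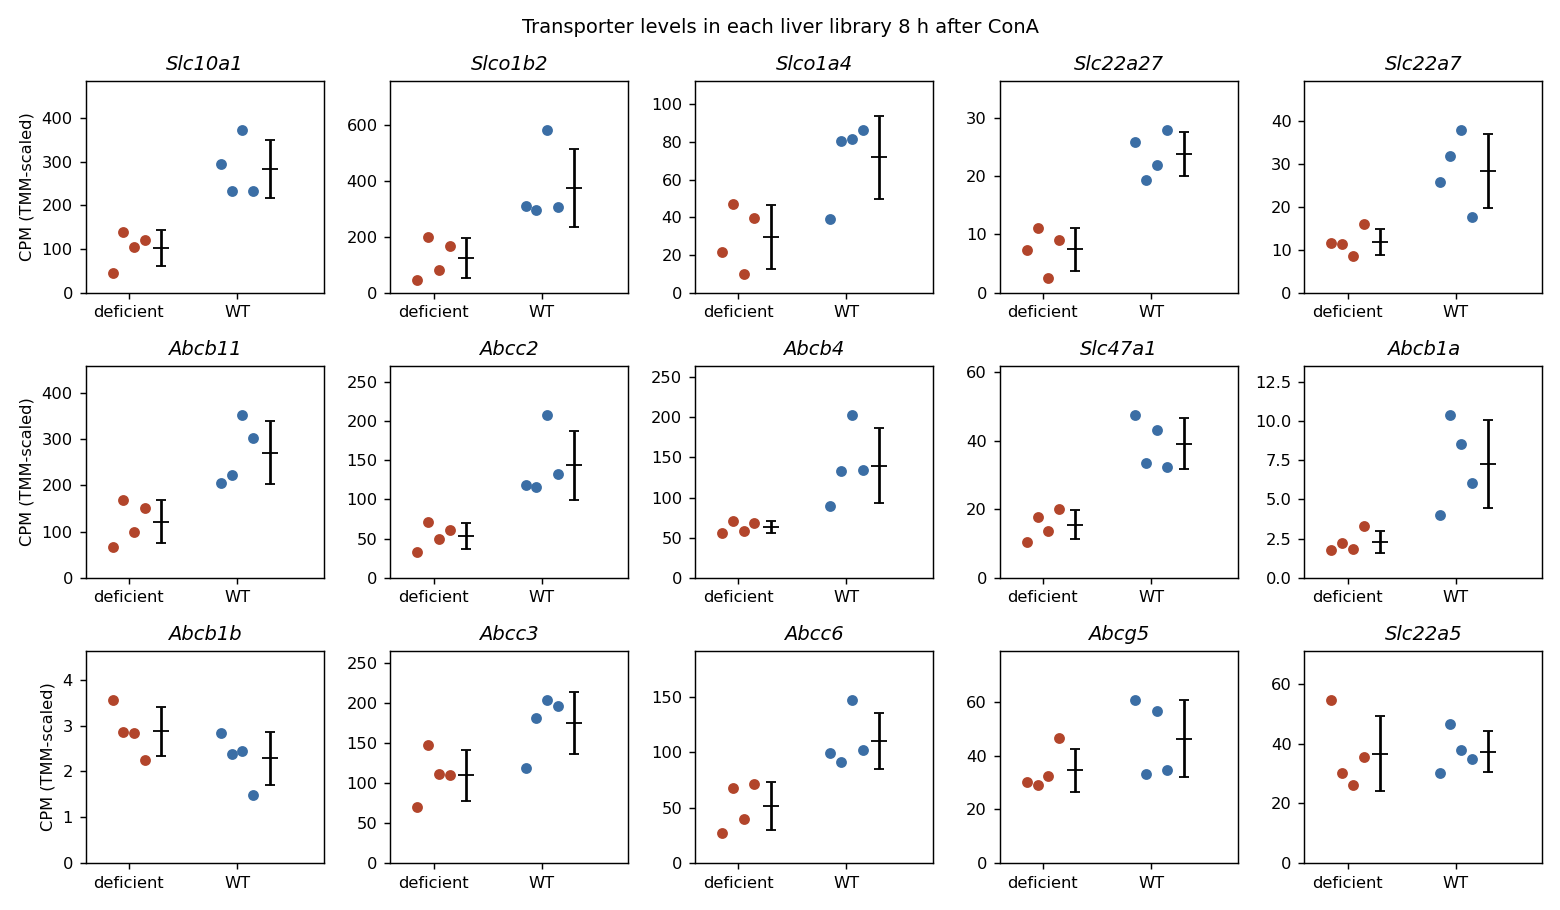
Level of 15 transporter genes in each library, in CPM with TMM scaling on a linear axis from 0; points are libraries in number order within a group, and the bar beside them is the mean ± SD (n = 4). The 6 members that passed in all alternatives include Slc10a1, Abcc2, Abcb4 and Slc47a1, where deficient points sit below WT points, while the points of Abcb1b, Abcg5 and Slc22a5 overlap.

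Abcg2, the breast cancer resistance protein pump, averaged 11.2 ± 1.52 CPM in deficient and 19.1 ± 1.70 CPM in WT livers (SD, n = 4 each) and fell by 0.76 on the log2 scale (SE 0.16 and edgeR adjusted p = 0.0109). The sterol exporters Abcg5 and Abcg8, which work as a heterodimer, did not pass. Their entries overlap on chromosome 17 on opposite strands, from 84983730 to 84990439 in the table's coordinates. As the strand setting is not given, reads there could have been divided between them. Abcg5 averaged 34.6 ± 8.01 CPM in deficient and 46.3 ± 14.4 CPM in WT livers, with a 95% interval of -0.93 to 0.09. Abcg8 averaged 26.2 ± 7.07 CPM in deficient and 28.0 ± 9.59 CPM in WT livers, with an interval of -0.64 to 0.46. The groups overlapped in both genes.

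The P-glycoprotein genes Abcb1a and Abcb1b, neighbouring paralogues on chromosome 5 that share a drug efflux role in rodents, had unlike values. Abcb1a had 1.75, 2.23, 1.85 and 3.33 CPM in deficient and 3.98, 10.4, 8.57 and 6.09 CPM in WT livers, without overlap, and fell by 1.66 (SE 0.33 and edgeR adjusted p = 0.00923). Abcb1b had 3.56, 2.86, 2.83 and 2.24 CPM in deficient and 2.84, 2.39, 2.44 and 1.47 CPM in WT livers, with overlap and an interval of -0.32 to 0.98. The log2 ratio of Abcb1b to Abcb1a FPKM averaged -0.19 ± 0.68 in deficient and -2.16 ± 0.77 in WT livers (SD, n = 4 each). The ratio differed by 1.97 (exact two-sided permutation p = 0.0571, and 0.114 adjusted over 4 pairs). The pairs were chosen with the values known. Both genes are low and alike in sequence, so their reads could have been divided between them.

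Shown are the windows around the RefSeq start sites of Slco1b2, Abcb11 and Abcc2, carriers that fell and whose windows hold the nuclear receptor hexamer. Each is 300 bases, 250 before and 50 after that start site, from RefSeq on build GRCm38.p6, written 5′ to 3′ on the gene's strand. Capitals mark any match, on either strand, to the nuclear receptor hexamer AGGTCA, the HNF1 core GTTAAT, the C/EBP site TTGCNNAA or the NF-kB site, which is GGG, 2 bases of any kind, then TTTCC.
Slco1b2, chr6:141629268-141629567, plus strand: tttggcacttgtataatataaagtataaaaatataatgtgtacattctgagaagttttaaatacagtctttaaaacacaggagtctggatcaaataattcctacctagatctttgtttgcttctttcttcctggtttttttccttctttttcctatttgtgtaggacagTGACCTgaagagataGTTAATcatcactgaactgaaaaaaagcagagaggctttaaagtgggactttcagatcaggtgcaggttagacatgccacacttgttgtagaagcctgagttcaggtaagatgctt
Abcb11, chr2:69342567-69342866, minus strand: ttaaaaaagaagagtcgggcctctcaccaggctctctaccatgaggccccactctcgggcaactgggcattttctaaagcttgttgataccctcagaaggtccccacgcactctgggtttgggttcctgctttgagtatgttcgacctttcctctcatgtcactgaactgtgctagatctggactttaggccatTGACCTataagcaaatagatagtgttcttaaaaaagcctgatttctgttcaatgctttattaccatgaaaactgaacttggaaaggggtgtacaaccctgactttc
Abcc2, chr19:43782058-43782357, plus strand: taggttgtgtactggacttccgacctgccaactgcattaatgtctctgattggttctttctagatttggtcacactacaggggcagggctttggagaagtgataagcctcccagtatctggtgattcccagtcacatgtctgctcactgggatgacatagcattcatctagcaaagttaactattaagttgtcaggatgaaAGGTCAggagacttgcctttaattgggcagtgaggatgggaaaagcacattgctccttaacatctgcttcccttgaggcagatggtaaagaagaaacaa

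The hexamer stood 81 bases before the RefSeq start site in Slco1b2, 56 before it in Abcb11 and 49 before it in Abcc2. The Slco1b2 window also held the HNF1 core, 66 bases before the start site. Windows were matched by symbol, so a RefSeq start site may not be that of the transcript counted. They were found for 60 of the 77 members, 71 windows in all, and 17 of the 23 members that fell had 20 windows. The hexamer was in 7 of those 20 windows (35.0%), in 15 of the 71 windows of all matched members (21.1%) and in 16.3% of all 32851 windows. Windows of Abcb4, Abcb1a and Slco1a4, which also fell, did not hold it. The HNF1 core was in 2 of the 20 windows and 7.10% of all, the C/EBP site in 3 of the 20 and 10.8% of all, and the NF-kB site in 0 of the 20 and 1.63% of all. These are matches of letters and not measured binding, and some windows belong to the same gene.

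The basolateral exporter list includes pumps that return bile salts and conjugates to blood. Its members fell in 1 of 6 tested cases, or 16.7%, against 10.6% of all tested genes. They rose in 0 (1 at an unadjusted p under 0.05, 0 in DESeq2), and had a median log2 fold change of -0.27. Abcc6 (ENSMUSG00000030834), which encodes MRP6, a hepatocyte protein that mediates ATP release, had 27.2, 67.4, 39.5 and 71.5 CPM in deficient and 99.5, 91.0, 147 and 102 CPM in WT livers. The groups did not overlap and Abcc6 fell by 1.10 (SE 0.28 and edgeR adjusted p = 0.0217). It missed the threshold without deficient 3 (-0.99, adjusted p = 0.0654) or without WT 3 (-0.93, adjusted p = 0.0707).

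Abcc3 (ENSMUSG00000020865), which encodes MRP3, the main basolateral pump for conjugates, had 69.4, 147, 111 and 110 CPM in deficient and 119, 180, 203 and 196 CPM in WT livers. WT 1 lay within the deficient range. Its log2 fold change was -0.67 (SE 0.24 and edgeR adjusted p = 0.0621), and it passed without deficient 2 (adjusted p = 0.0309), without WT 1 (adjusted p = 0.0310), once replicate number was a block (adjusted p = 0.0314) and in DESeq2 (adjusted p = 0.0325). The log2 ratio of Abcc3 to Abcc2 FPKM, basolateral over canalicular conjugate pump, was 1.45 to 1.76 in deficient and 0.55 to 1.22 in WT livers, without overlap. Means were 1.63 ± 0.13 in deficient and 0.88 ± 0.36 in WT livers (SD, n = 4 each), a difference of 0.75. The exact two-sided permutation p was 0.0286, the smallest that 4 against 4 libraries can give, and 0.114 adjusted over 4 pairs. All 4 pairs were chosen with the values known. The other pairs were Abcg5 to Abcg8, at 0.88 ± 0.41 in deficient and 1.20 ± 0.18 in WT livers (exact two-sided permutation p = 0.229), and Abcb11 to Slc10a1, at -0.96 ± 0.28 in deficient and -1.30 ± 0.36 in WT livers (exact two-sided permutation p = 0.286).

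Abcc5, a cyclic nucleotide pump, had 4.52, 3.04, 4.62 and 4.54 CPM in deficient and 3.79, 2.04, 1.65 and 1.73 CPM in WT livers. It was higher on average, at 0.86 on the log2 scale (SE 0.32 and edgeR adjusted p = 0.0773), with overlap through WT 1, and passed without WT 1 at 1.20 (adjusted p = 0.0225). Abcc1 averaged 6.55 ± 0.999 CPM in deficient and 8.07 ± 3.36 CPM in WT livers, with a 95% interval of -0.90 to 0.30. Abcc4, which encodes the MRP4 pump, was near 1 CPM in each group, at 1.06 ± 0.430 CPM in deficient and 1.16 ± 0.458 CPM in WT livers, with an interval of -1.10 to 0.84. The organic solute transporter gene Slc51b averaged 0.716 ± 0.311 CPM in deficient and 0.846 ± 0.306 CPM in WT livers. Its partner Slc51a had 0 reads in every library, which allows up to 0.172 to 0.211 CPM per library at a floor of 3 reads. Whether basolateral exporters as a class changed less than canalicular exporters was not tested.

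**Figure D3:**
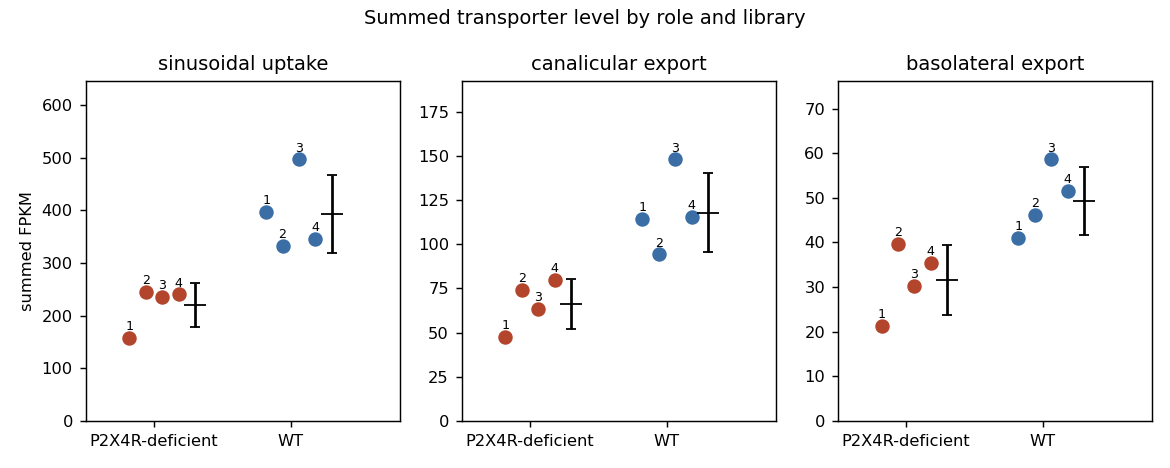
Summed FPKM of the members of each role list in each library, on axes from 0; numbers are library numbers, and the bar is the mean ± SD (n = 4). Deficient sums lie below WT sums in each panel, at 158 to 245 against 333 to 496 for sinusoidal uptake, 47.4 to 79.8 against 94.3 to 148 for canalicular export and 21.2 to 39.6 against 40.9 to 58.6 for basolateral export.

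Summed per length, the sinusoidal uptake genes reached 220 ± 41.4 FPKM in deficient and 393 ± 74.3 FPKM in WT livers (SD, n = 4 each). Canalicular exporters summed to 66.1 ± 14.2 FPKM in deficient and 118 ± 22.3 FPKM in WT livers, and basolateral exporters to 31.6 ± 7.93 FPKM in deficient and 49.3 ± 7.57 FPKM in WT livers. These sums describe the lists and were not tested. By mean FPKM, and among members reported singly, the order in deficient livers was Slc10a1 at 48.9 ± 18.7, Slc10a6 at 34.0 ± 5.52, Slco1b2 at 26.0 ± 14.5 and Abcb11 at 24.6 ± 8.85. In WT livers it was Slc10a1 at 123 ± 28.0, Slco1b2 at 71.8 ± 25.1, Abcb11 at 49.8 ± 11.9 and Slc22a26 at 38.9 ± 4.92. In deficient livers the ranges of mean ± SD of Slc10a1, Slc10a6, Slco1b2 and Abcb11 overlapped between neighbours. In WT livers each of those named overlapped with its neighbour in the order. Slc10a6, a carrier of sulfated steroids, averaged 68.5 ± 10.8 CPM in deficient and 84.0 ± 21.8 CPM in WT livers, with a 95% interval of -0.72 to 0.13 on the log2 scale.

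Outside the membrane roles, 10 of 19 tested members fell, or 52.6%, against 10.6% of all tested genes. Among the 19, 0 rose (1 at an unadjusted p under 0.05, 1 in DESeq2). Of the 10, 4 were the tested genes of a run of Slc22 genes on chromosome 19, from 7650426 to 8382475 in the table's coordinates, which are rodent members of the organic anion transporter group. Among the 4, Slc22a29 reached the filter level in every WT library but not in every deficient one, so its count here is no separate support. Slc22a26 had 22.6, 75.8, 25.0 and 69.7 CPM in deficient and 93.5, 134, 135 and 121 CPM in WT livers. Deficient 1 and deficient 3 were far below deficient 2 and deficient 4, and all were below the WT range. It fell by 1.33 (SE 0.36 and edgeR adjusted p = 0.0255), and missed the threshold without deficient 3 (adjusted p = 0.0648) or WT 3 (adjusted p = 0.0671).

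Slc22a27 had 7.23, 11.1, 2.43 and 9.01 CPM in deficient and 25.9, 19.4, 21.9 and 27.9 CPM in WT livers, and fell by 1.68 (SE 0.34 and edgeR adjusted p = 0.00990). Slc22a30 had 16.1, 28.6, 22.9 and 25.8 CPM in deficient and 41.3, 43.2, 64.0 and 54.3 CPM in WT livers, and fell by 1.12 (SE 0.21 and edgeR adjusted p = 0.00686). In both, the deficient livers were all below the WT range. Slc22a29 held 6, 20, 1 and 16 reads in deficient and 61, 33, 28 and 35 reads in WT libraries, and reached the filter level in every WT library but not in every deficient one. Its fall of 1.99 (SE 0.59 and edgeR adjusted p = 0.0346) passed without deficient 2 and with no other library left out (adjusted p = 0.0512 to 0.0806). Slc22a28 had 31 reads in deficient and 25 reads in WT libraries together and was not tested, and Slc22a19 had 0 reads. These genes are alike in sequence, and reads could have been divided between them.

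The remaining falls outside the roles were mostly smaller. Slc22a18, an imprinted member of the family, averaged 35.7 ± 6.17 CPM in deficient and 62.3 ± 8.35 CPM in WT livers (SD, n = 4 each) and fell by 0.80 (SE 0.17). Slc22a23 averaged 14.2 ± 2.82 CPM in deficient and 27.8 ± 8.29 CPM in WT livers, a fall of 0.97 (SE 0.23). Slc10a5, a relative of NTCP, averaged 2.35 ± 1.33 CPM in deficient and 7.76 ± 3.36 CPM in WT livers, a fall of 1.72 (SE 0.42) that missed the threshold without WT 3 (-1.39, adjusted p = 0.0636). Slc22a15 fell by 0.86 (SE 0.24), and not without deficient 1, deficient 3, WT 1 or WT 3 (adjusted p = 0.0675, 0.0681, 0.0605 and 0.0816), with size scaling alone (adjusted p = 0.0549) or once replicate number was a block (adjusted p = 0.0589).

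Members known mainly from other cells were also among the falls. Slco2a1, the prostaglandin transporter of endothelial cells, had 13.9, 26.4, 30.2 and 13.1 CPM in deficient and 36.3, 35.8, 50.6 and 40.5 CPM in WT livers, without overlap. It fell by 0.97 (SE 0.26 and edgeR adjusted p = 0.0263), and missed the threshold without deficient 1, deficient 4, WT 3 or WT 4 (adjusted p = 0.0597, 0.0567, 0.0819 and 0.0520). Of 11 tested endothelial markers 2 fell and 1 rose, or 27.3% called, against 19.9% of all tested genes. All 12 listed, tested or not, summed to 73.8 to 120 CPM in deficient and 57.9 to 153 CPM in WT livers. Abcc9, the sulfonylurea receptor subunit found in pericytes and smooth muscle, averaged 3.65 ± 0.773 CPM in deficient and 7.39 ± 1.37 CPM in WT livers, a fall of 1.02 (SE 0.23). Of 10 stellate cell markers 3 fell, against 10.6% of all tested genes. The 10 summed to 171 to 311 CPM in deficient and 276 to 456 CPM in WT livers. The part of either cell type was not tested. The intracellular transporter genes Abcb8, Abcb9 and Abcb10 did not pass.

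**Figure D4:**
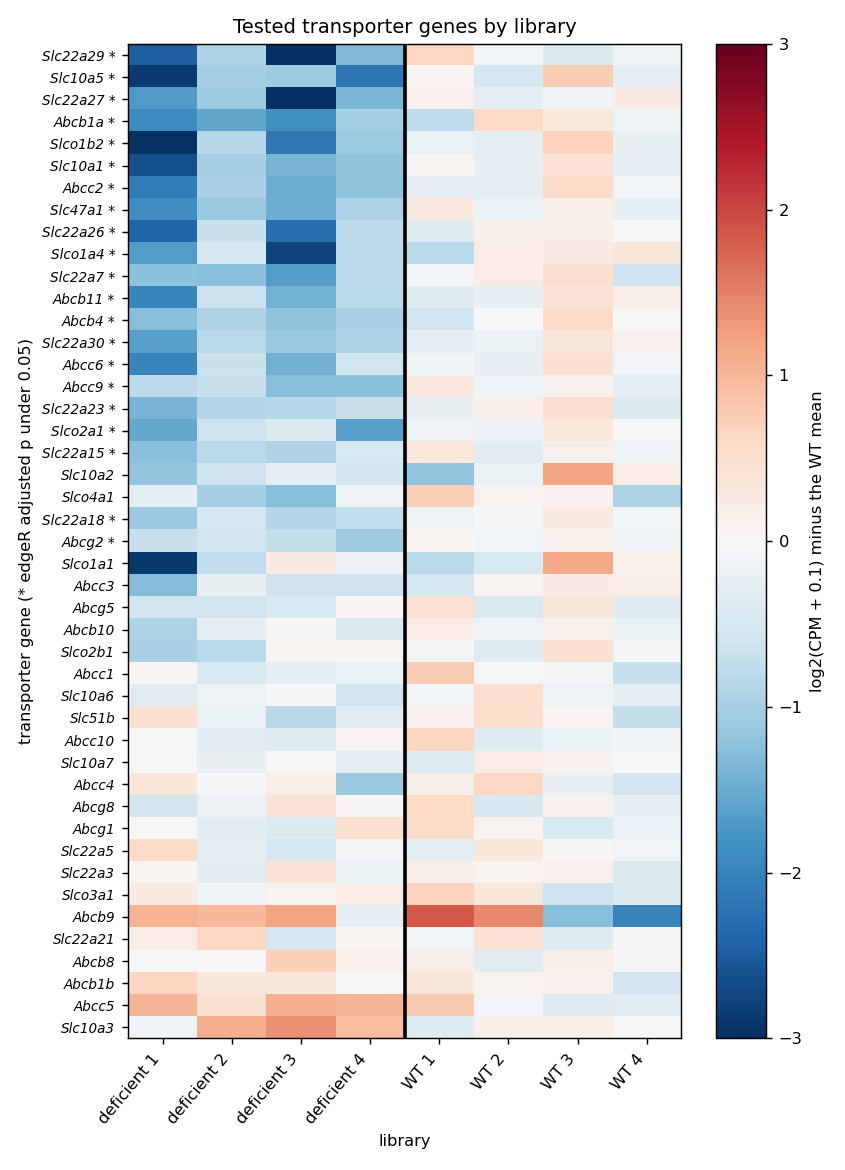
Level in each library of the tested transporters reported singly, as log2(CPM + 0.1) minus the mean of the WT libraries, ordered by fold change. Colours end at -3 and 3, and asterisks mark an edgeR adjusted p under 0.05. Deficient columns are blue for most of the rows with asterisks, and deficient 1 holds the lowest deficient value for 23 of the 47 tested members.

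The member nearest to a called rise was Slc10a3, an NTCP relative with no settled substrate, which had 2.89, 6.70, 8.21 and 6.03 CPM in deficient and 2.40, 3.51, 3.49 and 3.14 CPM in WT livers. Deficient 1 lay within the WT range. The fold change was 0.93 on the log2 scale (SE 0.31 and edgeR adjusted p = 0.0533), and it passed without deficient 1 (1.15, adjusted p = 0.0168), in DESeq2 (adjusted p = 0.0325) and in limma on log2(FPKM + 1) (adjusted p = 0.0318). Slc10a3 was chosen after its values were seen. Slc10a2, the sodium-coupled bile salt carrier of bile duct cells and ileum, averaged 13.1 ± 3.35 CPM in deficient and 23.8 ± 15.7 CPM in WT livers, with WT 3 at 45.6 CPM and an edgeR adjusted p of 0.141. Of 7 tested bile duct markers 1 fell (14.3%), against 10.6% of all tested genes. All 9 listed, tested or not, summed to 55.2 to 166 CPM in deficient and 220 to 248 CPM in WT livers. The mean log2(CPM + 1) over the 9 was 1.89 to 2.55 in deficient and 2.36 to 3.39 in WT livers, with overlap.

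The 30 members that were not tested had few or no reads. Of these, 13 had 0 reads in every library, 13 had 1 to 10 reads over all 8 libraries, and 4 had more. The 13 with 0 reads included the kidney carriers Slc22a8 and Slc22a12 as well as Slc47a2, and 1 was a pseudogene entry, Slc10a4-ps. Abcb6, a porphyrin carrier, had 0 reads in deficient and 2 reads in WT libraries.

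Of 19 tested genes known to control transporter expression, 4 fell and 1 rose, or 26.3% called, against 19.9% of all tested genes. Klb, the coreceptor through which intestinal FGF15 reaches hepatocytes, ranged over 0.603 to 3.27 CPM in deficient and 7.31 to 14.8 CPM in WT livers, and fell by 2.24 (SE 0.42 and edgeR adjusted p = 0.00750). Ahr, the xenobiotic receptor, averaged 18.5 ± 10.7 CPM in deficient and 58.7 ± 12.1 CPM in WT livers (SD, n = 4 each) and fell by 1.66 (SE 0.34). Nr5a2, a nuclear receptor of bile acid synthesis, averaged 24.2 ± 3.30 CPM in deficient and 44.6 ± 7.55 CPM in WT livers and fell by 0.88 (SE 0.17). In all 3 the deficient livers were below the WT range.

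The remaining calls among regulators were less stable. Stat5b, a mediator of growth hormone signals, fell by 0.57 (SE 0.18 and edgeR adjusted p = 0.0475), and with a library left out passed only without deficient 2 or WT 2. Its adjusted p was 0.0685 to 0.123 without the others. Stat5b also missed the threshold with size scaling alone, with no filter and once replicate number was a block. It missed it too in limma on log2(FPKM + 1) and log2(FPKM + 0.1). Foxa2, a hepatocyte transcription factor, rose by 0.77 (SE 0.22 and edgeR adjusted p = 0.0310), and missed the threshold without deficient 3, deficient 4, WT 2, WT 3 or WT 4 (adjusted p = 0.0710, 0.0939, 0.0613, 0.0924 and 0.0619) or once replicate number was a block (adjusted p = 0.0676). Nr1h4, which encodes FXR, the bile acid receptor that drives Abcb11, averaged 28.0 ± 11.0 CPM in deficient and 39.5 ± 11.4 CPM in WT livers, with a 95% interval of -1.11 to 0.11. Its target Nr0b2, which encodes SHP, was under the filter, at 0.387 ± 0.146 CPM in deficient and 0.349 ± 0.273 CPM in WT livers. Hnf4a had a log2 fold change of -0.03 (SE 0.22).

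Genes for proteins that anchor, traffic or seal the canalicular membrane were 20, of which 1 fell and 2 rose, or 15.0% called, against 19.9% of all tested genes. Pdzk1, a scaffold that binds transporter tails, had 1.93, 3.91, 4.80 and 3.85 CPM in deficient and 9.04, 7.38, 11.3 and 7.49 CPM in WT livers, and fell by 1.28 (SE 0.28 and edgeR adjusted p = 0.0116). Vipas39, a partner of VPS33B in apical trafficking, had 11.0, 6.15, 10.6 and 8.73 CPM in deficient and 4.49, 1.90, 3.95 and 3.20 CPM in WT livers, and rose by 1.43 (SE 0.29 and edgeR adjusted p = 0.00928). In both, the groups did not overlap. The tight junction gene Cldn3 rose by 0.95 (SE 0.25 and edgeR adjusted p = 0.0220), and not without deficient 3, WT 1, WT 3 or WT 4 (adjusted p = 0.0560, 0.0529, 0.0559 and 0.0501). Atp8b1, the canalicular flippase, had a log2 fold change of -0.13 (SE 0.21) and did not pass.

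**Figure D5:**
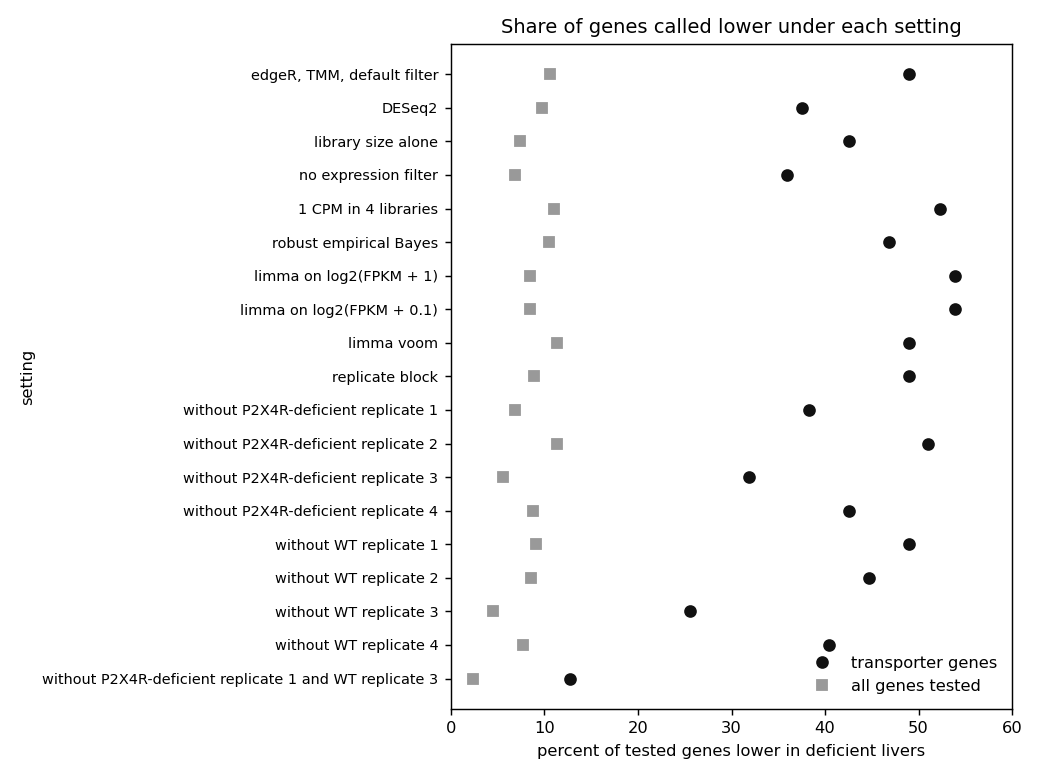
Percent of tested genes lower in deficient livers at an adjusted p under 0.05 under each setting, for transporter genes (circles) and for all genes tested (squares). The transporter share is 48.9% against 10.6% in the first row, 25.5% against 4.54% without WT 3 and 12.8% against 2.32% without deficient 1 and WT 3.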

How the data were processed

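RNA was sequenced in 8 mouse liver libraries, 4 per group. Per the labels' protocols, RNA was Trizol-extracted, poly(A)-selected, primed with random oligonucleotides and sequenced on an Illumina NovaSeq. Cutadapt and HISAT2 2.0.5 are named in the submitters' processing notes. The sources used here do not give the counting tool, strand setting, annotation or build, so overlapping genes and close paralogues cannot be separated and coordinates are printed as the table lists them. Per the file headers, the authors deposited raw read counts and FPKM per gene. FPKM recomputed from counts and lengths differed by at most 7e-05%. Replicates differed by more than counting noise (chi-square per degree of freedom 21.5 to 109).

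Counts were tested with edgeR 4.0.16 (quasi-likelihood, TMM, default filter, R 4.3.3) on all 11380 genes that passed of 21899, with Benjamini-Hochberg adjusted p-values and a threshold of 0.05. Each SE is the log2 fold change divided by the square root of F, and intervals are 95% from it. Means are given ± SD over 4 libraries. Floors of 3 reads cover counting error only. The procedure was tested on simulated data. Alternatives were DESeq2 1.42.0, size scaling alone, no filter, 1 CPM in 4 libraries, robust estimation, limma 3.58.1 on log2(FPKM + 1) and log2(FPKM + 0.1), voom, a block for replicate number, and leaving out libraries in turn.

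The gene families that define the members, and the lists, were chosen with earlier results of these data known. Some members enter the counts and sums but are not reported here singly. Named otherwise were all tested members with a sinusoidal, canalicular or basolateral role, other members past the threshold, the 5 highest by FPKM outside the roles, and called genes of the regulator and canalicular partner lists; further names were chosen after their values were seen.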

Additional observations from a re-analysis of the deposited data

Results flagged for a closer look

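In 3 of 86 groups of 4 libraries, covering the named genes, 1 library lay far from the other 3. Chance gives this in about 1 of 20 groups. Abcc5 was at 3.04 CPM in deficient 2 and 4.52 to 4.62 CPM in the other deficient livers. Slco1a4 was at 39.0 CPM in WT 1 and 80.6 to 86.5 CPM in the other WT livers. Slco1b2 was at 582 CPM in WT 3 and 294 to 311 CPM in the other WT livers.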

How the results depend on the processing

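With a library left out, the number of transporter genes that fell was 12 to 24 and that rose 0 to 1, over 982 to 2388 genes called in all. Calls numbered 2 to 5 for sinusoidal uptake, 5 to 6 for canalicular export and 0 to 3 for basolateral export. Without deficient 1 and WT 3 together, chosen after seeing the data, 481 genes were called in all. Among transporters 6 fell and 1 rose (1 sinusoidal, 3 canalicular and 0 basolateral calls). The number that rose was 1 in DESeq2, with size scaling alone, with the 1 CPM filter and in limma on log2 FPKM with either pseudocount, in each case Slc10a3. Size scaling alone left 3 sinusoidal calls, over 2574 of 11380 genes called in all. DESeq2 and the replicate block each gave 2 basolateral calls, over 2865 of 16099 and 1768 of 11380 genes called in all. Of all genes called, 46.6% were higher with TMM and 67.2% with size scaling alone.

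Over the 47 tested members, 40 fold changes were negative, against 34 with size scaling alone and 36 to 42 with a library left out. Among members named for their role, 5 changed sign, none of them past the threshold. With size scaling alone Abcc4 was at 0.019, Abcg8 at 0.043, Slc22a3 at 0.14 and Slc22a5 at 0.13 on the log2 scale. In limma on log2(FPKM + 1) and log2(FPKM + 0.1), Abcg8 was at 0.061 and 0.072, Slc22a3 at 0.071 and 0.12, and Slc22a5 at 0.073 and 0.076. Slc22a3 was at 0.025 with no filter and 0.0058 with the 1 CPM filter. With 1 library, or deficient 1 and WT 3 together, left out, values ran from -0.41 to 0.14 for Abcc4, -0.27 to 0.14 for Abcg8, -0.17 to 0.086 for Slc22a3, -0.29 to 0.10 for Slc22a5 and -1.10 to 0.15 for Slco1a1. The cause of these changes was not tested.

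Equal replicate numbers did not pair the libraries. Deviations of same-numbered libraries correlated at 0.13, -0.11, 0.07 and -0.11, and 0 of 8 libraries correlated best with their own number. With the replicate block 1768 genes were called, 23 transporters fell and 22 of these were shared with the fit without it. Depth limits members near 1 CPM, with 95% intervals of -1.10 to 0.84 for Abcc4 and -1.23 to 0.76 for Slc51b.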
